A study of Mus musculus with 4 samples.

Results

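Cholesterol is made from acetyl-CoA through mevalonate, squalene and a series of sterols, and cells balance this synthesis against uptake and export. The genes described here are 29 cholesterol genes chosen by symbol: 18 enzymes of synthesis, 5 genes of the sterol sensor, and 6 genes of sterol transport, export and their regulation. All 29 were among the 24411 symbols of the count table, and all 29 passed the filter on low counts that left 13507 genes for testing. Despite the name of the set, it holds no lipoprotein receptor, and its link to uptake is Mylip, whose product marks lipoprotein receptors for degradation.

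When sterols are low in the endoplasmic reticulum, the escort protein SCAP carries the precursors of the transcription factors SREBP1 and SREBP2 to the Golgi, where they are cut and released to turn on genes of synthesis and uptake. INSIG proteins hold SCAP back when sterols are plentiful. When oxysterols build up, liver X receptors turn on exporters such as ABCA1 and ABCG1 together with Mylip. In their effect on cell cholesterol, these act in the opposite direction to SREBP2. Dividing lymphocyte precursors need sterols for new membrane.

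The RNA came from pro-B cells, early B cell precursors, sorted from bone marrow of C57BL/6 mice by the surface markers B220, CD43 and HSA. The 2 knockout mice (numbers 51 and 63, called KO) were Tnpo3fl/fl mb1Cre and the 2 control mice (numbers 55 and 69, called WT) were Tnpo3+/+ mb1Cre, so both genotypes carried the Cre, which is expressed from the Cd79a locus of the B lineage. Tnpo3 encodes transportin 3, a nuclear import receptor for splicing factors rich in serine and arginine. Ages are not given in the labels, and cells that had not deleted Tnpo3 were not separated from those that had.

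Library totals were 40647384 and 30440627 counts in knockouts 51 and 63, and 32697489 and 26211372 in controls 55 and 69. Levels are CPM, that is counts scaled to a common library total (counts per 1000000) after TMM scaling. Tnpo3 itself was at 79.7 and 68.8 CPM in knockouts 51 and 63, against 159 and 148 CPM in controls 55 and 69, which edgeR's quasi-likelihood fit put at a log2 fold change of -1.05 ± 0.14 (SE; Benjamini-Hochberg adjusted p of 0.0108), or of -0.94 without knockout 63 (0.0603). Other features of the libraries moved with genotype. Of 14 B-lineage markers 12 were lower in the knockout, of 16 dendritic cell markers 12 were higher, and of 12 mitosis genes 12 were lower. Summed CPM were 3227 and 2758 in knockouts against 12717 and 12752 in controls 55 and 69 for the B-lineage markers, 10078 and 13117 against 3812 and 1946 for the dendritic markers, and 1578 and 1193 against 2757 and 3082 for mitosis. Of 12 natural killer cell markers 7 were higher, with sums of 1178 and 272 CPM in knockouts 51 and 63, against 49.1 and 44.0 CPM in controls 55 and 69. Of 11 T cell markers 6 were higher and 0 lower. Their sums were 991 and 829 CPM in knockouts 51 and 63, against 92.2 and 91.6 CPM in controls. Cd4 made up most of the knockout sums, at 590 and 516 CPM in knockouts 51 and 63. Cd3e, Cd3d and Cd3g were at 5.99, 14.9 and 13.6 CPM in knockout 51 and 0.631, 1.16 and 2.22 CPM in knockout 63. In controls they were at 0.113 to 0.642 CPM, and of them only Cd3g passed. All 12 neutrophil and granulocyte markers were lower, with sums of 212 and 52.3 CPM in knockouts, against 4932 and 3766 CPM in controls. Of 10 monocyte and macrophage markers 3 were higher and 4 lower, with sums of 1395 and 991 CPM in knockouts, against 170 and 123 CPM in controls. Of 7 tested erythroid markers 6 were lower, the defining globin genes Hba-a1 and Hbb-bs were at 0 in every library, and Tfrc, a transferrin receptor that other dividing cells also use, made up most of the erythroid sums of 749.97 and 1618 CPM in knockouts and 650 and 418 CPM in controls. The part of these other cells in the results below was not tested, and in a bulk sample fewer cells of a type and less RNA per cell cannot be told apart.

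Knockout libraries held relatively more RNA of 13 of the 18 synthesis enzymes and of 3 genes that switch them on, and less RNA of an exporter, of the receptor Nr1h2 and of Mylip. At an adjusted p of 0.05, 16 of the 29 genes rose and 3 fell, while 10 did not pass. Over all 13507 genes tested, 11.3% rose and 10.9% fell. The 29 genes had a median log2 fold change of 1.03, against -0.02 over all genes tested. Both knockout libraries lay above both controls for 21 of the 29 genes and below both for 4, against 33.0% and 34.6% of all genes tested. A fit without 1 library leaves 1 mouse in that genotype, which is assumed to vary like the 2 mice of the other genotype, so a call lost there does not show a weaker change. Leaving out knockout 63 left 5 genes higher and 2 lower, where 5.33% and 3.78% of all genes passed. Leaving out knockout 51 gave 16 higher and 3 lower (6.49% and 5.11% of all genes), leaving out control 55 gave 13 and 3 (10.6% and 9.22%) and leaving out control 69 gave 13 and 3 (11.7% and 11.2%). With sex as a block, which leaves 1 residual degree of freedom, 20 rose and 3 fell (15.8% and 16.2%).

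**Figure D1:**
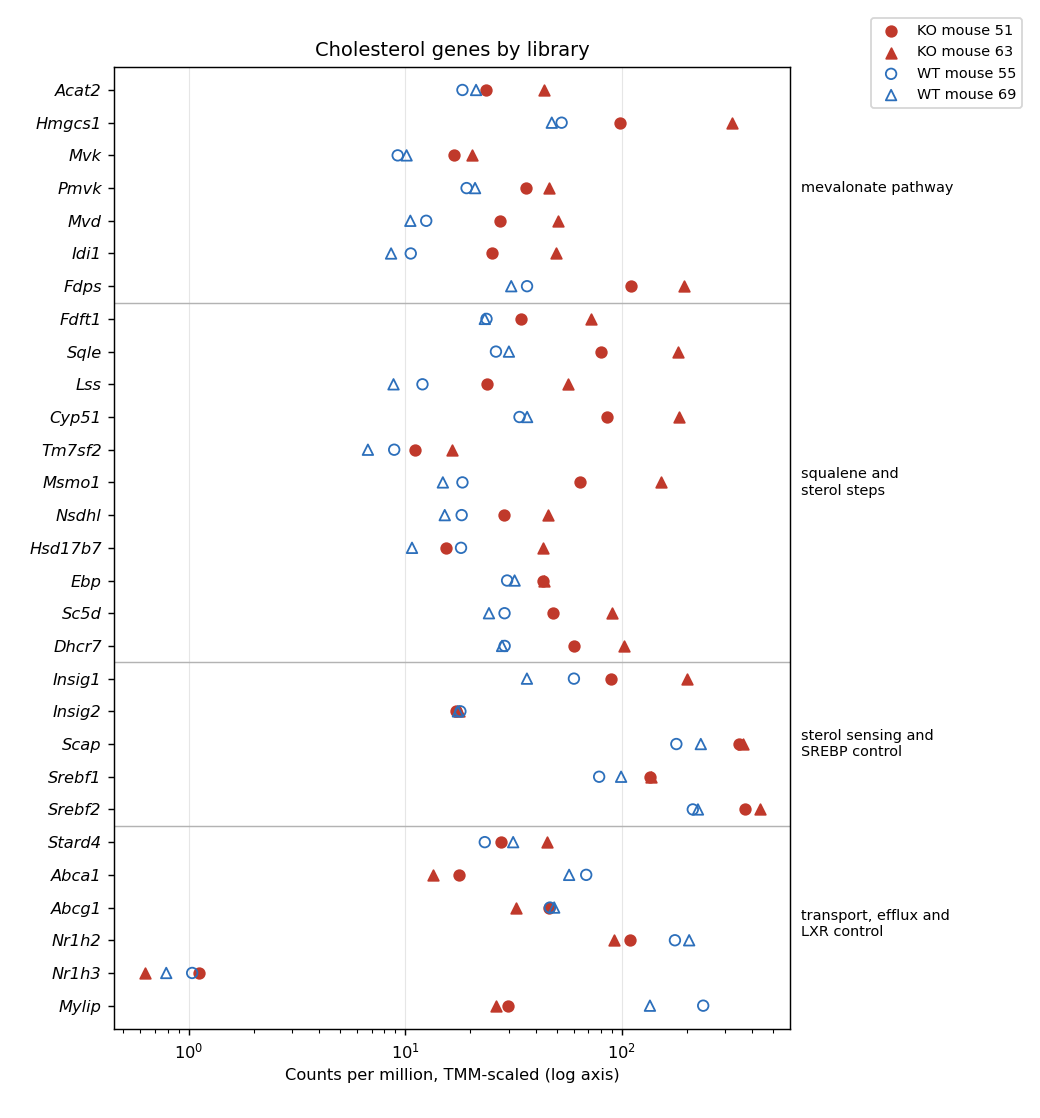
Level of each of the 29 cholesterol genes in the 4 libraries, in TMM-scaled CPM on a log axis; filled red symbols are the 2 knockout mice and open blue symbols the 2 control mice. The synthesis enzymes other than Hsd17b7 lie to the right in both knockouts, furthest in mouse 63, while Abca1, Nr1h2 and Mylip lie to the left.

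**Figure D2:**
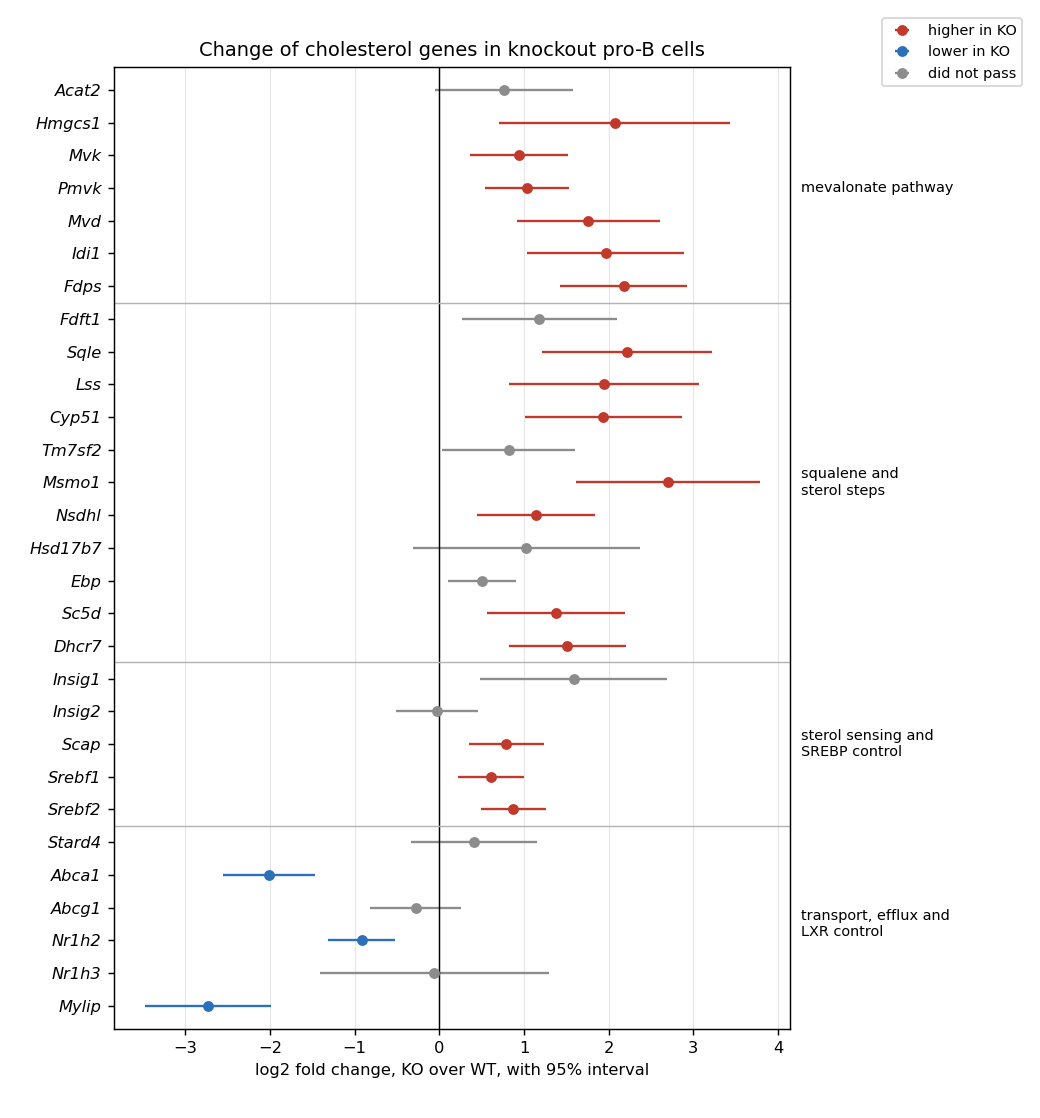
Log2 fold change of each gene, knockout over control, with its 95% interval from the edgeR fit (n = 2 mice a genotype); red genes rose, blue genes fell and grey genes did not pass an adjusted p of 0.05. Msmo1 has the largest rise (2.70) and Mylip the largest fall (-2.73), and Insig2 sits at -0.03.

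Promoters of some genes that rose, of some that fell and of Insig1, which did not pass, are shown as examples. RefSeq promoter sequences (GRCm38.p6) were matched for 24 of the 29 genes, with Fdps, Fdft1, Sqle, Stard4 and Abcg1 not matched. Each window of 300 bases, from 250 before the annotated start to 50 after it, was searched on both strands for TCACNCCAC, a form of the sterol regulatory element, for CACNCCAC, the 8 letters that lie within it, for CCAAT, a box that the factor NF-Y binds, and for CACGTG, an E-box that SREBPs can also bind. The 250 upstream bases are printed 5′ to 3′ on the gene's strand, with matches in capitals (for Hmgcs1 the sterol element and CCAAT, for Insig1 the CACNCCAC match, CCAAT and the E-box, for Abca1 the E-box and for the others CCAAT, each also as its reverse complement).
Hmgcs1, chr13:119690101-119690350, plus strand: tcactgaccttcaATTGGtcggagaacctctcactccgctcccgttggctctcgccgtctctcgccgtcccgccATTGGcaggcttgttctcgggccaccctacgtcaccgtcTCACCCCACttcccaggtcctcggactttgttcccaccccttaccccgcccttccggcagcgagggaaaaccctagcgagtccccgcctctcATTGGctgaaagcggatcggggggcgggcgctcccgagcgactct
Mvk, chr5:114444019-114444268, plus strand: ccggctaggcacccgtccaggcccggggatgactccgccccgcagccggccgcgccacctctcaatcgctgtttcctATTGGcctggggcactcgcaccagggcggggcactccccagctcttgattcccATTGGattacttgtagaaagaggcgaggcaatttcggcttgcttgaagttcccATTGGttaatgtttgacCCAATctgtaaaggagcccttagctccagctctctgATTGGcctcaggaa
Nsdhl, chrX:72918271-72918520, plus strand: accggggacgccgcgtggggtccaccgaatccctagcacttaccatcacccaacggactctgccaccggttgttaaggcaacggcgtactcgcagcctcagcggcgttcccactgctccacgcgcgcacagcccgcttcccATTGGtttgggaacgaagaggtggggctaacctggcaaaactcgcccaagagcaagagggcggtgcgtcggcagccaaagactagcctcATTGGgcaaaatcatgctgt
Msmo1, chr8:64733579-64733828, minus strand: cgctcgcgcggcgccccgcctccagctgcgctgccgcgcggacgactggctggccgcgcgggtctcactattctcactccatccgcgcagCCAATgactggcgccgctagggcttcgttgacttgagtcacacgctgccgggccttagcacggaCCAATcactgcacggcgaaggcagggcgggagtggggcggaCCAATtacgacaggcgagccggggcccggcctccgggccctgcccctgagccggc
Insig1, chr5:28071162-28071411, plus strand: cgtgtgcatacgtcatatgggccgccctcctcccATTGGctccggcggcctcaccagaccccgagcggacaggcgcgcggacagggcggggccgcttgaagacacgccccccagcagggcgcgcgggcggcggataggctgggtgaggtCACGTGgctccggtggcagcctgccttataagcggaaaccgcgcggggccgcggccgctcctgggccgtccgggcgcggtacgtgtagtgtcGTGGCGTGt
Abca1, chr4:53159896-53160145, minus strand: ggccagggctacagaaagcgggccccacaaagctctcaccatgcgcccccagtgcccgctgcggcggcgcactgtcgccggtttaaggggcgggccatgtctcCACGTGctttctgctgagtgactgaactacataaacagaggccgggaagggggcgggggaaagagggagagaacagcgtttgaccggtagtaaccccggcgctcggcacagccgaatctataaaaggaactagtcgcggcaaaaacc
Mylip, chr13:45389492-45389741, plus strand: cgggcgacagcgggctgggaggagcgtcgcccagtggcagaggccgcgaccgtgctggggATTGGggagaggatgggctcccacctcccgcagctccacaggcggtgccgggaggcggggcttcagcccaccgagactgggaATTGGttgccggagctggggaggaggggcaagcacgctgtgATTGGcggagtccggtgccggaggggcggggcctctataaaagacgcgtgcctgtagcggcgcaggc

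The full element TCACNCCAC was found for 1 of the 24 genes, Hmgcs1, at positions -137 to -129 from the start, and in 1.44% of all 27025 genes with a window. CACNCCAC was found for Hmgcs1, Insig1 and Acat2, which is 12.5% of the 24, against 7.12% of all genes. A CCAAT box was present for 19 of the 24 (79.2%, against 41.1% of all genes), among them genes that rose, such as Mvk, and one that fell, Mylip. The E-box was present for 6 of the 24 (25.0%, against 8.09%). The genes printed were picked after their matches were seen. These matches describe letters in a window and not binding, and genes with several annotated starts have several windows. A gene was counted if any of its windows matched. The 27025 genes were not limited to those that passed the filter on low counts, which all of the 24 had passed. Shares among the genes tested were not computed. By window, CCAAT was present in 60.6% of the 33 windows of these genes, against 37.4% of all 32851 windows. The E-box was present in 21.2% against 7.15%, and CACNCCAC in 9.09% against 6.24%.

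The early enzymes, which build mevalonate and turn it into farnesyl diphosphate, were higher in the knockout for 6 of 7 genes, with a median log2 fold change of 1.76. Fdps, the synthase of farnesyl diphosphate, was at 109.9 and 194 CPM in knockouts 51 and 63, against 36.5 and 30.9 CPM in controls 55 and 69. Both knockout libraries were far above both controls (log2 fold change of 2.17 ± 0.30, adjusted p of 0.0111). Idi1, which isomerises the isoprene units, was at 25.2 and 49.7 CPM in knockouts, against 10.6 and 8.61 CPM in controls (1.96 ± 0.37, adjusted p of 0.0214). Mvd, the decarboxylase that makes the isoprene unit, was at 27.4 and 50.8 CPM in knockouts, against 12.5 and 10.6 CPM in controls (1.76 ± 0.34, 0.0225). Neither gene's groups overlapped, and in both the higher value was that of mouse 63.

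Hmgcs1, the enzyme that makes HMG-CoA, was at 98.1 and 323 CPM in knockouts 51 and 63, against 52.7 and 47.5 CPM in controls 55 and 69. The groups did not overlap, but mouse 63 held 3.29 times the level of mouse 51. The log2 fold change of 2.07 had the largest SE of the early enzymes (0.54, adjusted p of 0.0492). The kinases moved less and more evenly. Mvk, mevalonate kinase, was at 16.8 and 20.4 CPM in knockouts, against 9.23 and 10.1 CPM in controls (log2 fold change of 0.94 ± 0.23, adjusted p of 0.0400). Pmvk, phosphomevalonate kinase, was at 36.1 and 46.3 CPM in knockouts, against 19.2 and 21.0 CPM in controls (1.03 ± 0.20, 0.0229). Acat2, a thiolase that condenses acetyl-CoA and whose reads may be shared with its close copy Acat3, did not pass, at 23.6 and 43.8 CPM in knockouts, against 18.4 and 21.2 CPM in controls, with a 95% interval for the log2 fold change of -0.05 to 1.58. Without knockout 63 the log2 fold changes of Hmgcs1, Mvk, Pmvk, Mvd and Idi1 were 0.97, 0.79, 0.85, 1.25 and 1.39 and none of the 5 passed (adjusted p of 0.0521 to 0.203), while Fdps passed at 1.71. Mvk also missed the threshold with each of the other libraries left out (0.0516 to 0.0911), and Hmgcs1 without either control (0.0504 and 0.0512), with limma-voom (0.0627), with limma on the authors' values (0.0627) and with the stricter filter (0.0532).

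The later enzymes, from squalene to cholesterol, were higher for 7 of 11 genes, with a median log2 fold change of 1.38. Msmo1, which removes methyl groups from the sterol ring, had the largest log2 fold change of the 29 genes, at 64.4 and 152 CPM in knockouts 51 and 63, against 18.4 and 14.9 CPM in controls 55 and 69 (2.70 ± 0.43, adjusted p of 0.0153). Sqle, squalene epoxidase and a rate-controlling step, was at 79.9 and 182 CPM in knockouts, against 26.2 and 30.1 CPM in controls (2.21 ± 0.40, 0.0195). Cyp51, the lanosterol demethylase, was at 85.2 and 184 CPM in knockouts, against 33.7 and 36.5 CPM in controls (1.94 ± 0.37, 0.0223). In each of these 3 genes the lower knockout library was still above both controls, and the controls lay close together. Without knockout 63 all 3 still passed, with smaller log2 fold changes of 1.95 for Msmo1, 1.51 for Sqle and 1.28 for Cyp51 (adjusted p of 0.0143, 0.0215 and 0.0292).

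Lss, which folds the squalene epoxide into lanosterol, was at 23.9 and 56.5 CPM in knockouts, against 12.0 and 8.83 CPM in controls (log2 fold change of 1.94 ± 0.45, adjusted p of 0.0350). Dhcr7, the reductase that completes cholesterol in one branch of the pathway and the gene mutated in Smith-Lemli-Opitz syndrome, was at 59.9 and 102 CPM in knockouts, against 28.8 and 28.0 CPM in controls (1.51 ± 0.28, 0.0202). Sc5d, a sterol desaturase, was at 47.9 and 90.2 CPM in knockouts, against 28.7 and 24.4 CPM in controls (1.38 ± 0.32, 0.0367). Nsdhl acts with Msmo1 in the demethylation of the ring. Its levels were 28.4 and 45.4 CPM in knockouts, against 18.2 and 15.2 CPM in controls (1.14 ± 0.28, 0.0402). In all 4 genes the groups were apart and mouse 63 was the higher knockout. Without knockout 63 the log2 fold changes of Lss, Sc5d and Nsdhl were 1.20, 0.85 and 0.77 (adjusted p of 0.0889, 0.109 and 0.176), and Dhcr7 passed at 1.08 (0.0495). Nsdhl also missed the threshold without control 69 (0.0568) and, like Lss, with limma-voom (0.0519 for Nsdhl and 0.0650 for Lss).

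The other 4 late enzymes did not pass, although each had a positive fold change. Fdft1, the squalene synthase at the branch to sterols, was at 34.2 and 72.4 CPM in knockouts 51 and 63, against 23.7 and 23.3 CPM in controls 55 and 69, a log2 fold change of 1.18 with a 95% interval of 0.26 to 2.09. Ebp, the sterol isomerase, was at 43.3 and 43.9 CPM in knockouts, against 29.5 and 32.0 CPM in controls, with the smallest change of any enzyme (0.50, interval 0.11 to 0.90). Tm7sf2, a sterol reductase, was at 11.1 and 16.5 CPM in knockouts, against 8.90 and 6.73 CPM in controls (0.82, interval 0.04 to 1.60). For these 3 genes both knockouts lay above both controls. Hsd17b7, a ketoreductase, was the only enzyme of the 18 whose groups overlapped, at 15.5 and 43.4 CPM in knockouts, against 18.1 and 10.7 CPM in controls. Adjusted p-values of the 4 genes were 0.0734 for Fdft1, 0.0767 for Ebp, 0.120 for Tm7sf2 and 0.220 for Hsd17b7. Without knockout 51 Fdft1 and Hsd17b7 passed, at 1.62 (0.0174) and 1.59 (0.0493), and without knockout 63 the fold change of Hsd17b7 was 0.10 and that of Fdft1 0.54. Fdft1 (0.0118) and Ebp (0.0463) also passed with DESeq2, Fdft1 (0.0252) without a filter, and with sex as a block Fdft1 (0.0310), Ebp (0.0489) and Hsd17b7 (0.0383).

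Taking the 18 enzymes as a group, 13 rose, 0 fell and 5 did not pass, with a median log2 fold change of 1.44 and a range of 0.50 to 2.70. Without knockout 63, 5 of them passed, namely Fdps, Sqle, Cyp51, Msmo1 and Dhcr7. The summed level of the 18 was 831 and 1716 CPM in knockouts 51 and 63, against 405 and 381 CPM in controls 55 and 69. The controls differed little, and both knockouts were above them. Mouse 63 was above mouse 51 for 18 of 18 enzymes, against 51.0% of all genes tested. The median ratio was 1.87, against 1.01 over all genes tested. The ratio was at least 1.5 for 14 of the enzymes, against 7.93% of all genes tested. The ratio ran from 1.01 for Ebp to 3.29 for Hmgcs1. Each genotype had 1 female and 1 male mouse by Xist and Y-linked genes. Between the females (63 over 55) 18 of 18 enzymes were higher with a median log2 ratio of 1.74, and between the males (51 over 69) 18 of 18 with 1.01. The share of all genes that were higher was not computed for either pair. In the fit of all libraries, 48.7% of all genes tested had a log2 fold change above 0. With 1 mouse of each sex in a genotype, sex and the individual mouse cannot be told apart. All natural killer markers but Klrd1 ran the other way between the knockouts and were higher in mouse 51. Klrd1 was at 114 CPM in mouse 51 and 155 CPM in mouse 63. Dendritic markers were 1.3 times as high in mouse 63 by their sums given above. The part of either set of markers in the difference was not tested.

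**Figure D3:**
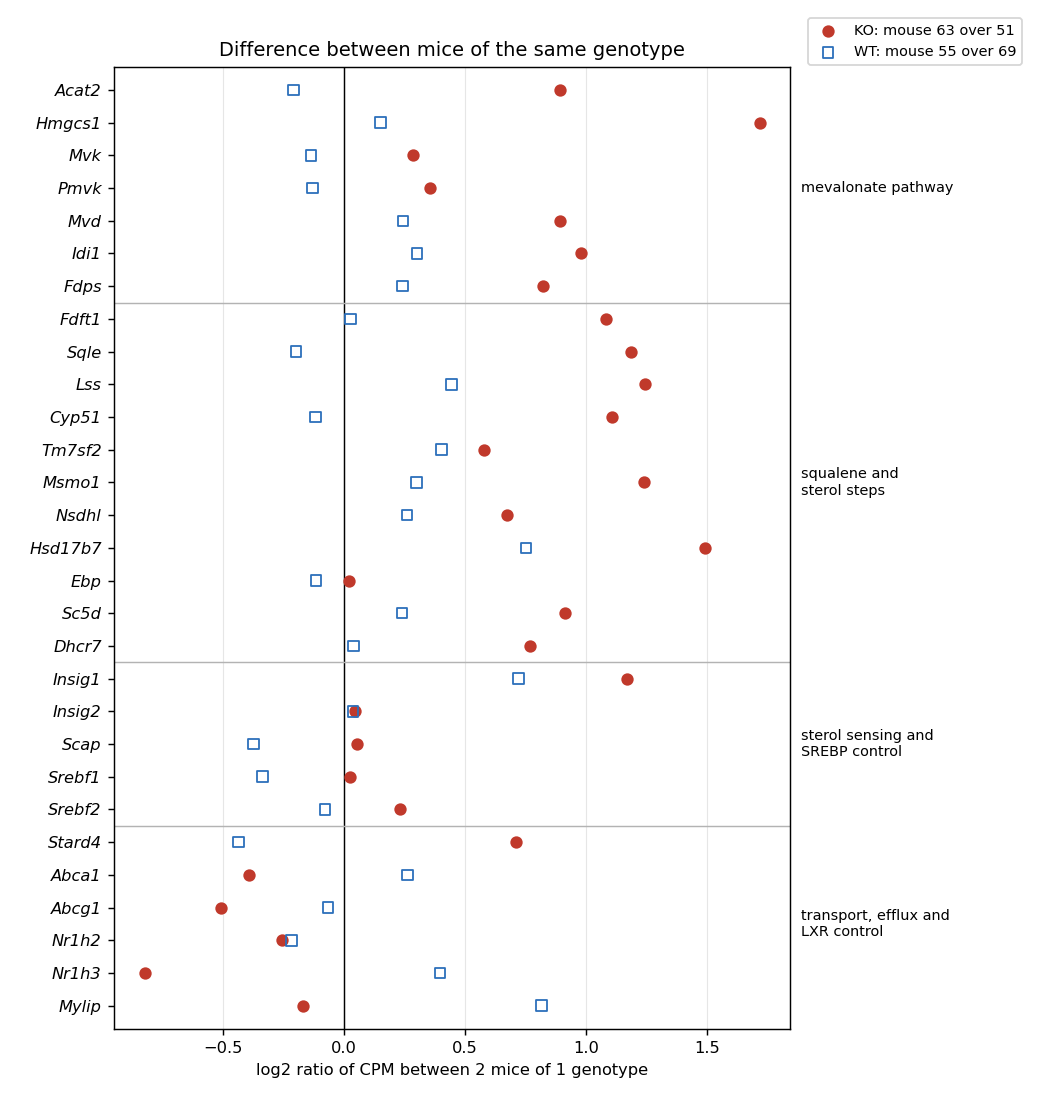
Log2 ratio of CPM between the 2 mice of 1 genotype for each gene, with filled red circles for knockout 63 over knockout 51 and open blue squares for control 55 over control 69. All 18 enzymes lie above 0 in the knockout comparison, up to 1.72 for Hmgcs1, while Scap and Srebf1 lie near 0. Of all genes tested, 51.0% were higher in knockout 63 than in knockout 51.

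Of the 5 genes of the sterol sensor, 3 rose, and the median log2 fold change was 0.79. Srebf2, which encodes SREBP2, the main activator of the synthesis genes, was at 369 and 432 CPM in knockouts 51 and 63, against 212 and 224 CPM in controls 55 and 69 (log2 fold change of 0.87 ± 0.16, adjusted p of 0.0190). Scap, the escort protein gene, was at 347 and 361 CPM in knockouts, against 178 and 231 CPM in controls (0.79 ± 0.18, 0.0324). Srebf1, which encodes the SREBP1 forms that favour fatty acid synthesis, was at 134 and 137 CPM in knockouts, against 78.5 and 99.2 CPM in controls (0.61 ± 0.16, 0.0466). The groups were apart in all 3, and knockout 63 was at 1.02 to 1.17 times the level of knockout 51. Gene counts do not separate the SREBP1a and SREBP1c transcripts of Srebf1.

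The INSIG genes differed in their values. Insig1, itself a known SREBP target, was at 89.2 and 201 CPM in knockouts 51 and 63, against 60.1 and 36.5 CPM in controls 55 and 69. Both knockouts were above both controls, and the log2 fold change of 1.59 ± 0.44 had an adjusted p of 0.0560. Insig2, which is regulated apart from SREBP, was at 17.1 and 17.7 CPM in knockouts, against 18.0 and 17.5 CPM in controls, with a log2 fold change of -0.03 and a 95% interval of -0.51 to 0.45. The difference between the 2 INSIG genes was not tested. Insig1 passed without control 55 (2.02, adjusted p of 0.0201), without knockout 51 (2.06, 0.0178), with sex as a block (1.52, 0.00185), with DESeq2 (1.59, 0.00199) and without a filter (1.62, 0.0125), and was at 0.89 (0.166) without knockout 63.

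With a library left out, the log2 fold changes of the 3 genes that rose were all positive, between 0.48 and 0.99, and several missed the threshold. Without knockout 63 Srebf2, Scap and Srebf1 had log2 fold changes of 0.76, 0.76 and 0.60 and missed the threshold (0.101, 0.132 and 0.200). Without knockout 51 Scap was at 0.82 (0.102) and Srebf1 at 0.62 (0.160), and without control 55 Scap was at 0.65 (0.0561) and Srebf1 at 0.48 (0.0796). Srebf1 also missed the threshold without a scaling factor (0.59, 0.0541).

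Among the genes of sterol transport and export, 3 of 6 fell and 0 rose, with a median log2 fold change of -0.60. Mylip, the ubiquitin ligase gene that liver X receptors turn on, fell most of the 29 genes, to 29.7 and 26.4 CPM in knockouts 51 and 63, against 237 and 135 CPM in controls 55 and 69. The knockouts agreed closely, the controls were spread, and the log2 fold change of -2.73 ± 0.30 passed with an adjusted p of 0.00716. Abca1, the exporter that loads cholesterol onto apolipoproteins, was at 17.7 and 13.4 CPM in knockouts, against 68.4 and 57.1 CPM in controls (-2.01 ± 0.22, 0.00704). Nr1h2, which encodes liver X receptor beta, was at 109 and 91.5 CPM in knockouts, against 176 and 204 CPM in controls (-0.92 ± 0.16, 0.0178). Mylip and Abca1 passed with each library left out (log2 fold changes of -3.08 to -2.23 for Mylip and -2.22 to -1.83 for Abca1), and Nr1h2 was at -0.79 (0.102) without knockout 63.

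The other 3 genes of this group did not pass. Abcg1, a second known exporter and liver X receptor target, was at 46.1 and 32.4 CPM in knockouts 51 and 63, against 46.5 and 48.7 CPM in controls 55 and 69, a log2 fold change of -0.28 with a 95% interval of -0.82 to 0.26. Nr1h3, which encodes liver X receptor alpha and is known from liver and macrophages, was near the bottom of the range at 1.11 and 0.631 CPM in knockouts, against 1.04 and 0.789 CPM in controls, from 45 and 19 counts in knockouts and 34 and 21 in controls. Its interval of -1.41 to 1.29 is wide, and a difference was not detectable at this depth. Stard4, a carrier of sterol between membranes and a known SREBP target, was at 27.6 and 45.1 CPM in knockouts, against 23.3 and 31.5 CPM in controls, and its groups overlapped (0.41, interval -0.34 to 1.15).

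**Figure D4:**
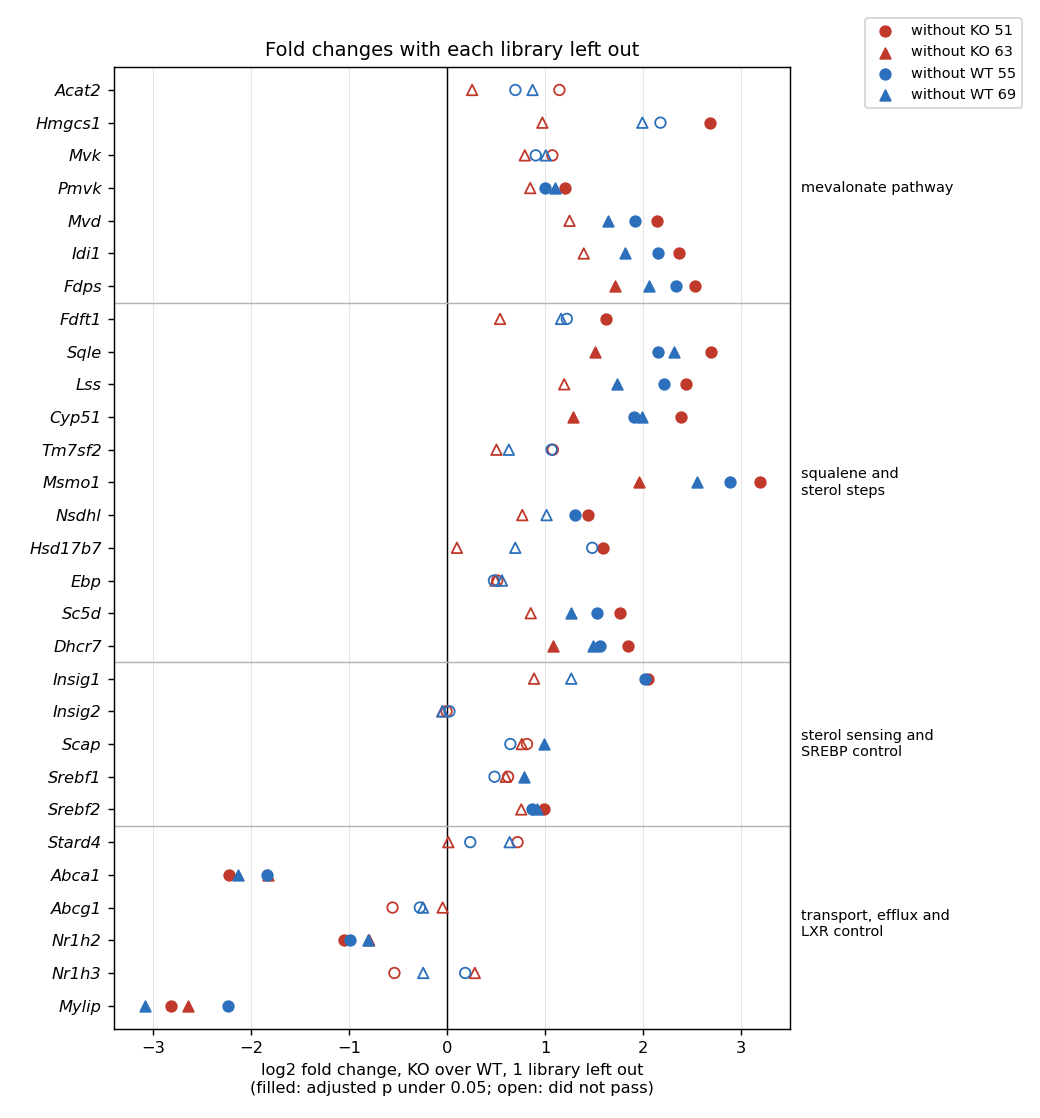
Log2 fold change of each gene, knockout over control, with 1 library left out at a time (red symbols leave out a knockout, blue symbols a control; filled symbols passed an adjusted p of 0.05 and open symbols did not). Leaving out knockout 63 moves nearly all enzymes to the left, for example Hmgcs1 to 0.97, and Mylip and Abca1 keep filled symbols at every setting.

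Levels can be compared between genes only per length, so CPM were divided by the length of the union of exons in GENCODE M21. In knockouts the highest mean levels were those of Srebf2, Scap, Insig1 and Hmgcs1 (55.7, 47.5, 46.9 and 45.8 CPM per kb), followed by Fdps (36.2) and Cyp51 (30.5). Neither the order within this top nor its membership was beyond the spread of the mice. Hmgcs1 was at 21.4 and 70.2 CPM per kb and Srebf2 at 51.3 and 60.2 in mice 51 and 63. In mouse 51 Nr1h2, at 32.6 CPM per kb, was above Insig1 (28.8), Fdps (26.1), Hmgcs1 and Cyp51 (19.3). In mouse 63 Nr1h2 was at 27.3 CPM per kb, below each of these genes. In controls Mylip and Nr1h2 were highest (57.5 and 56.7 CPM per kb), with mice 55 and 69 at 73.4 and 41.7 for Mylip and 52.4 and 60.9 for Nr1h2, and Hmgcs1 was at 10.9. Lowest in both genotypes was Nr1h3, at 0.347 CPM per kb in knockouts and 0.364 in controls. Mylip held the 20th place of the 29 genes in knockouts and the highest in controls.

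Of a wider list of 58 cholesterol and fatty acid genes, 54 were in the table and 52 were tested, of which 17 rose and 8 fell, against the same 11.3% and 10.9% of all genes. Counts from fits without 1 knockout, which leave 1 mouse in that genotype, are not set against these shares. In those fits the log2 fold changes of the genes named below from this list kept their sign. Among genes of SREBP processing and lipoprotein uptake 6 of 14 rose and 2 fell. Npc2, which hands cholesterol out of lysosomes, was at 539 and 580 CPM in knockouts 51 and 63, against 219 and 197 CPM in controls 55 and 69 (log2 fold change of 1.43 ± 0.15, adjusted p of 0.00714). Syvn1, a ubiquitin ligase gene of the endoplasmic reticulum, was at 164 and 121 CPM in knockouts, against 486 and 471 CPM in controls (-1.75 ± 0.19, 0.00751). Both genes kept their groups well apart.

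Of 19 tested genes of storage, export and oxysterols, 5 rose and 4 fell. Nceh1, a hydrolase of stored cholesterol esters, was at 91.7 and 126 CPM in knockouts, against 24.1 and 17.6 CPM in controls (2.38 ± 0.25, 0.00660). Gramd1b, a carrier that moves cholesterol from the plasma membrane to the endoplasmic reticulum, was at 32.5 and 29.5 CPM in knockouts, against 7.83 and 8.31 CPM in controls (1.94 ± 0.20, 0.00656). Osbpl9, of the oxysterol-binding protein family, was at 104 and 112 CPM in knockouts, against 241 and 206 CPM in controls (-1.05 ± 0.15, 0.0114), and at -0.99 (0.0554) without knockout 51. Of 8 tested further genes of sterol and isoprenoid metabolism 3 rose and 0 fell.

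Of 11 tested fatty acid genes that SREBP1 is known to act on, 3 rose and 2 fell. Fasn, fatty acid synthase, was at 235 and 253 CPM in knockouts 51 and 63, against 92.7 and 120 CPM in controls 55 and 69 (log2 fold change of 1.20 ± 0.17, adjusted p of 0.0126). Fads2, a desaturase, was at 103 and 129 CPM in knockouts, against 21.5 and 39.1 CPM in controls (1.94 ± 0.31, 0.0156). Acaca, which makes malonyl-CoA, was at 61.4 and 63.4 CPM in knockouts, against 31.1 and 33.3 CPM in controls (0.95 ± 0.15, 0.0148). Gpam, which starts the synthesis of triglycerides, went the other way, at 49.0 and 35.9 CPM in knockouts, against 218 and 261 CPM in controls (-2.50 ± 0.21, 0.00497). Acaca missed the threshold without either knockout (0.0617 without 51 and 0.0721 without 63).

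The annotated span of 6 of the 29 genes overlaps another protein-coding gene, namely Mvd, Fdps, Fdft1, Cyp51, Tm7sf2 and Srebf1, and without a stated strand setting reads of such pairs cannot be told apart. Of the other 23 genes, 12 rose and 3 fell. The same holds for Tnpo3, which overlaps Irf5, and for Syvn1, Osbpl9 and Acaca of the wider list, which overlap Mrpl49, Nrd1 and Gm11437.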

How the data were processed

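RNA was isolated with an RNeasy kit and sequenced from NEBNext low input libraries, per the labels' protocols, 1 library per mouse. The tools were featureCounts, DESeq2, STAR (2.7.4a), Subread (2.0.0), deepTools (3.3.2) and SAMtools (1.10), with GRCm38 and mm10 as builds, per the submitters' processing notes. The annotation and the strand setting of the counting are not stated. The authors deposited raw counts and a second table of signal that equals the counts multiplied by a factor per library (0.816 and 1.10 for knockouts 51 and 63, 1.01 and 1.22 for controls 55 and 69).

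Counts were fitted in R 4.3.3 with edgeR 4.0.16 (filterByExpr with a minimum count of 10 and a minimum total of 15, TMM, glmQLFit and glmQLFTest), over all genes with Benjamini-Hochberg adjustment at 0.05. Each standard error is the absolute log2 fold change divided by the root of the F statistic. Totals were 26211372 to 40647384 counts a library, so that 3 counts, the limit that a count of 0 allows, are 0.0743 to 0.113 CPM; this covers counting error only, and n = 2 mice a genotype limits the precision. No list was tested as a set. Libraries of 1 genotype differed by far more than counting error (chi-square per gene of 51.9 in knockouts and 71.7 in controls). Alternatives were DESeq2 1.42.0 and its size factors, unscaled totals, all genes unfiltered, only genes with at least 1 CPM in 2 libraries and 50 counts on average, limma-voom (limma 3.58.1), limma on log2 of the authors' values plus 1, sex as a block, and each library left out. The fit was tested on simulated counts with the same dispersion for every gene. In them 200 of 13312 genes were changed, while 2992 of 13507 passed in the data, so recovery in the data may differ. The fit recovered 96.9% of simulated 4-fold, 23.6% of 2-fold and 1.23% of 1.5-fold changes, and 3 of 79 calls were false. A gene that did not pass may therefore still have changed.

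The genes and lists were chosen with earlier results of these data known. All 29 genes are named; of the wider list, up to 4 genes a list that passed with the lowest adjusted p were to be named. Some of those are not reported here. Positions are from GENCODE M21 (GRCm38) and promoters from RefSeq (GRCm38.p6).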

Additional observations from a re-analysis of the deposited data

Results flagged for a closer look

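The direction of 2 genes differed between the sexes, with 1 knockout and 1 control mouse in each, so the difference was not tested. The log2 ratio of Stard4, knockout over control, was 0.95 in females and -0.19 in males. That of Nr1h3 was -0.72 in females and 0.50 in males, from 19 to 45 counts a library. The other 27 genes had the same sign in both sexes.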

How the results depend on the processing

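No paired analysis was possible because the genotypes share no mouse numbers, except for sex as a block, which sets 1 female and 1 male of each genotype side by side and gave 20 higher and 3 lower of the 29 genes. Of 347 refits of the 29 genes under the 12 alternatives, 302 kept the direction and the side of the threshold, 28 no longer passed, 13 newly passed and 4 changed sign. The sign changes were those of Insig2 (0.0071 without a filter, and -0.048 to 0.024 with a library left out, the highest without control 55) and of Nr1h3 (-0.54 to 0.28 with a library left out, above 0 at 0.19 without control 55 and 0.28 without knockout 63), neither of which passed in any of them. Nr1h3 had too few counts for the stricter filter. With a library left out, the number of the 29 genes past the threshold was 7 to 19, against 19 with all libraries, and the lowest was without knockout 63. The number of all genes was 1277 to 3229, against 2992, with the lowest 2 values, 1277 and 1616, without knockout 63 and without knockout 51. The log2 fold change of Tnpo3 was -1.16 to -0.94, and did not pass at -0.94 without knockout 63. The cause was not tested. Scaling moved the median of all genes from -0.02 to -0.01 with DESeq2 size factors and to -0.04 without a factor. The wider list kept 9 of 9 named calls with each alternative other than the loss of a knockout library.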
